A study of Mus musculus with 3 samples.

Results

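Ciliated airway cells were taken from single cell and single nucleus profiles of mouse lung as the barcodes with at least 1 UMI (unique molecular identifier, a tag that counts each captured RNA molecule once) in at least 5 of 8 genes. The 8 genes were Dnah12, Hydin, Spag17, Cfap299, Cfap43, Ccdc153, Foxj1 and Dynlrb2. The rule was met by 874 of 28589 barcodes, of which 96 of 11934 were whole cells, 85 of 6849 were nuclei of replicate 1 and 693 of 9806 were nuclei of replicate 2. All libraries came from wild type C57Bl/6J mice with no treatment and were made with the droplet-based 10x Genomics Chromium 3' chemistry. For the 1 cell library, fresh lung was treated with DNAse and collagenase at 37 °C, dissociated mechanically and cleaned on an Optiprep gradient. The 2 nucleus libraries came from adult lung that had been snap-frozen, lysed in Nuclei EZ buffer and passed through fine filters. Preparation and tissue state therefore differed together and cannot be told apart, and the labels do not say which animals gave which library, so every p below measures only the spread between these libraries. The ciliated barcodes are compared within and between preparations, and with the other barcodes of their library, defined as those with 0 or 1 of the 8 genes (10527 cells, 4725 nuclei of replicate 1 and 6505 nuclei of replicate 2).

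Ciliated cells of the airway each carry many motile cilia that beat together and move mucus out of the lung. A motile cilium is built on a ring of doublet microtubules around a central pair. Outer and inner dynein arms drive the sliding of the doublets, radial spokes and the central pair regulate it, nexin links limit it, and intraflagellar transport carries the parts along the shaft. The programme is switched on by Gmnc and Mcidas and then by Foxj1, Myb, Trp73 and the Rfx factors, while Deup1 and Ccno act in the deuterosome that multiplies the basal bodies.

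The members carried the transcripts that their label implies. In 110 genes of cilium structure that the rule did not use, the median ciliated barcode held 3.04% of its UMIs in cells, 4.33% in nuclei of replicate 1 and 4.61% in nuclei of replicate 2, against 0.113%, 0.163% and 0.230% in the other barcodes. Of 13 further markers listed for the class, 11 were in the tables (Dnai1 and Dnai2 were not analysed here). Of these 11, 10 were at least 2 times and 6 at least 8 times as high in ciliated as in other barcodes of every library, where the share of all genes that reached these ratios was 4.76% and 1.16%. Tmem212, a membrane protein gene typical of multiciliated cells, had 1315 CPM (UMI counts of all barcodes of a class in a library, summed and scaled to a common total) in ciliated cells and 1479 and 1828 CPM in ciliated nuclei, against 1.88 CPM in other cells and 45.3 and 63.5 CPM in other nuclei. Dnah5, an outer arm heavy chain, had 959 CPM in ciliated cells and 1170 and 1359 CPM in ciliated nuclei, against 1.95, 32.2 and 54.6 CPM in the other barcodes. The 1 marker below a ratio of 2 was Tubb4b, a tubulin of the axoneme, at 87.5 CPM in ciliated cells and 47.5 and 57.5 CPM in ciliated nuclei, against 19.6 CPM in other cells and 29.5 and 40.4 CPM in other nuclei. These ratios describe the choice of barcodes and carry no test.

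The edge of the rule differed between the libraries. Barcodes with exactly 5 of the 8 genes numbered 23 in cells, 27 in nuclei of replicate 1 and 166 in nuclei of replicate 2. Their median share of UMIs in the 110 cilia genes was 2.08%, 1.97% and 4.33%, and 4, 12 and 17 of them were under 1%. Barcodes with exactly 4 genes, just outside, numbered 18, 123 and 118, had medians of 1.36%, 0.180% and 0.253%, and held 11, 8 and 12 barcodes at or above 1%. Barcodes with all 8 genes had medians of 3.44%, 4.62% and 4.71%. Altogether 4 of 96 ciliated cells, 14 of 85 nuclei of replicate 1 (16.5%) and 19 of 693 nuclei of replicate 2 (2.74%) held less than 1%, so nuclei of replicate 1 included a larger part with few cilia transcripts. Several results, but not all, are also given without these barcodes, an alternative chosen after seeing the data.

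**Figure D1:**
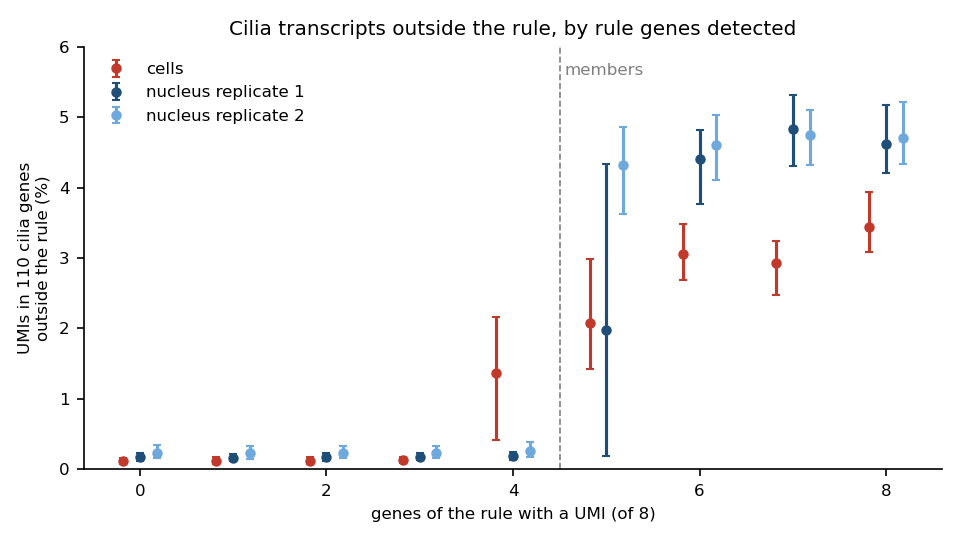
Share of UMIs in 110 cilia structure genes outside the rule (y axis, percent) by the number of the 8 rule genes with a UMI (x axis), for cells, nucleus replicate 1 and nucleus replicate 2; points are medians over barcodes and bars span the lower to the upper quartile. Medians lie under 0.3% up to 3 genes in every library, and at 5 genes they are 2.08% for cells, against 1.97% and 4.33% for the nuclei of replicates 1 and 2.

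The 8 chosen genes were unequal among the members. Dnah12, an inner arm heavy chain, had a UMI in 97.9% of ciliated cells and 97.6% and 99.6% of ciliated nuclei, at 1349 CPM in cells and 2560 and 4283 CPM in nuclei. Foxj1, the transcription factor of the motile cilium programme, had a UMI in 45.8% of ciliated cells and 43.5% and 24.2% of ciliated nuclei, at 246 CPM in cells and 137 and 78.1 CPM in nuclei. Ccdc153 had 545 CPM in ciliated cells and 178 and 254 CPM in ciliated nuclei, and Dynlrb2, a dynein light chain, 367 CPM in ciliated cells and 160 CPM in ciliated nuclei of either replicate. Ccdc153, Foxj1 and Dynlrb2 were higher in cells than in both nucleus libraries, and Dnah12, Hydin, Spag17, Cfap299 and Cfap43 were lower. These genes chose the members, so their levels among members are not independent of the rule, and its part in these differences was not tested. Cfap299 was the rule gene seen most outside the class among cells, and in nuclei of replicate 1 Cfap43 and Dnah12 were seen more often. Cfap299 had a UMI in 30.6% of other cells and 10.3% and 12.2% of other nuclei, at 134 CPM in other cells and 32.8 and 55.5 CPM in other nuclei. In other cells its share lay between 25.1% and 35.3% in barcodes with 6 or more of 12 markers of type 1 or type 2 pneumocytes, endothelium, mesenchyme or immune cells, so it was spread over all of these classes. Foxj1, by contrast, had a UMI in 0.228% of other cells and 3.15% and 2.00% of other nuclei.

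Ciliated barcodes made up 0.804% of cells (exact binomial 95% interval 0.652 to 0.981%), 1.24% of nuclei of replicate 1 (0.992 to 1.53%) and 7.07% of nuclei of replicate 2 (6.57 to 7.59%). The intervals cover counting error only. The 2 nucleus libraries thus lay further apart than nucleus replicate 1 and the cells, and with 1 cell library no test between preparations was made. With 4 of the 8 genes as the minimum the shares were 0.955% of cells and 3.04% and 8.27% of nuclei, and with 6 they were 0.612% of cells and 0.847% and 5.37% of nuclei. After every barcode was thinned to 1000 UMIs, 0.285% of cells and 0.629% and 4.41% of nuclei met the rule.

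Ciliated barcodes held a median of 3026.5 UMIs in cells and 4046 and 3815 UMIs in nuclei, and their summed counts were 297301 in cells and 336763 and 2662080 in nuclei. At an equal depth of 1000 UMIs the median ciliated cell had 809 genes detected and the median ciliated nucleus 747 and 778. Other barcodes had 765 genes in cells and 720 and 752 in nuclei, so the ciliated barcodes had more genes per UMI than the rest in each library. Without thinning the medians were 1958 genes in ciliated cells and 2110 and 2115 in ciliated nuclei. Mitochondrial transcripts took a median of 4.07% of UMIs in ciliated cells and 0.284% and 0.166% in ciliated nuclei, against 2.02%, 0.300% and 0.248% in other barcodes. The deposited tables stop at 2499 genes per barcode in cells and nucleus replicate 1 and at 2999 in nucleus replicate 2, and 21 to 24 barcode sequences were shared by each pair of libraries.

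Of the 22 genes outside the rule that stood furthest above the other barcodes, 13 belong to the cilia lists and 9 to none of them. Ranked by the smallest of the 3 log2 ratios, the leading genes outside the rule were Rgs22, the lncRNA Gm37381, Cfap61, Kif6, Ccdc30, Rp1, Fank1, Ak7, Stk33, Ccdc162, Dnah9 and Dnah6, and 10 more followed. Rgs22, a regulator of G protein signalling, had 922 CPM in ciliated cells and 2123 and 2948 CPM in ciliated nuclei, against 1.21 CPM in other cells and 30.8 and 56.6 CPM in other nuclei. Cfap61, a radial spoke protein, had 780 CPM in ciliated cells and 1455 and 1663 CPM in ciliated nuclei, against 6.76, 22.7 and 32.2 CPM in the other barcodes. The ratio of ciliated to other barcodes for Rgs22 was 760 in cells and 68.9 and 52.1 in nuclei. The other nuclei held more of these transcripts than the other cells did, and this is also seen for every gene of the plot of leading genes. Across the 9 cilia lists, 247 genes outside the rule were in the tables, and 170 of them were at least 2 times and 86 at least 8 times as high in ciliated as in other barcodes of every library.

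**Figure D2:**
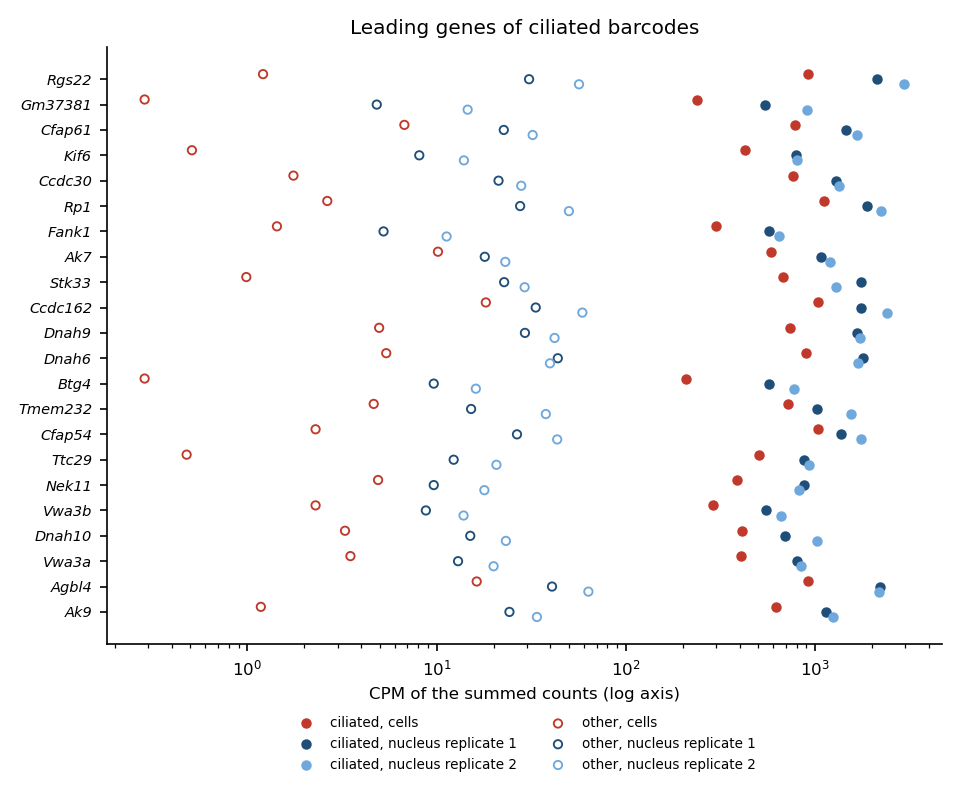
CPM of the summed counts (x axis, log scale) of the 22 leading genes outside the rule (y axis), for ciliated barcodes (filled) and other barcodes (open) of cells, nucleus replicate 1 and nucleus replicate 2. Every filled point lies at 200 CPM or more, the open points of nuclei lie between 4.83 and 63.4 CPM, and each open point of cells lies below both open points of nuclei.

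Promoters of the cilia genes were searched for the X-box, the palindromic element that Rfx factors bind. The letters searched were GTTGCC and GGNAAC with any 2 bases between them, on both strands, in the RefSeq promoter windows of build GRCm38.p6 that run from 250 bases before to 50 after the start of each gene. The X-box letters were found in 5 of 210 promoters of the cilia lists and rule genes (2.38%), in 61 of 15172 promoters of all genes of the tables (0.402%) and in 96 of all 27025 promoters (0.355%). The forkhead letters TGTTTAC, which do not overlap the X-box letters, were in 10 of the 210 (4.76%), in 540 of 15172 (3.56%) and in 1095 of 27025 (4.05%). A match is a description of the letters only. The 5 matches are shown because their genes belong to the nexin link and the transport lists, with up to 30 bases of flank, in the direction of the gene, the X-box letters in capitals.
Ak9 (chr10:41303893-41303966, plus strand): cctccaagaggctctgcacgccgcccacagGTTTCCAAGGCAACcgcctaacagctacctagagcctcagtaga
Iqca (chr1:90153493-90153566, minus strand): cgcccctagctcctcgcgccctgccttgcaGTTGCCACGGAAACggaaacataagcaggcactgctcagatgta
Ttc26 (chr6:38381461-38381534, plus strand): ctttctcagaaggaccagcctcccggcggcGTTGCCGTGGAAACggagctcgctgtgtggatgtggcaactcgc
Tctn1 (chr5:122264411-122264454, minus strand, ending at the edge of the promoter window): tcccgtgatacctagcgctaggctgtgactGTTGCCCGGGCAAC
Bbs7 (chr3:36613467-36613540, minus strand): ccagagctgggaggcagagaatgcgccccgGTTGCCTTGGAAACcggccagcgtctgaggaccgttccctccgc
In Ak9 the letters match on the opposite strand. All 5 genes were lower in ciliated cells than in both ciliated nucleus libraries, but a test found this for 1 of them. Ak9, an adenylate kinase, had 619 CPM in ciliated cells and 1134 and 1237 CPM in ciliated nuclei (log2 fold -1.15 ± 0.25 SE, edgeR adjusted p = 0.019), against 1.18 CPM in other cells and 24.3 and 33.9 CPM in other nuclei. Iqca had 242 CPM in ciliated cells and 356 and 366 CPM in ciliated nuclei. Ttc26, a subunit of intraflagellar transport, had 63.9 CPM in cells and 116 and 122 CPM in nuclei. Tctn1, of the transition zone, and Bbs7, of the BBSome that carries membrane cargo, had 53.8 and 30.3 CPM in ciliated cells, against 77.2 and 65.3 CPM in nuclei of replicate 1 and 171 and 100.3 CPM in nuclei of replicate 2.

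Between ciliated cells and ciliated nuclei, most genes of the cilium had lower counts in cells. Summed counts per library were compared with edgeR's quasi-likelihood test over 7709 genes that passed a filter on low counts, the 8 rule genes left out, with Benjamini-Hochberg adjustment and a threshold of 0.05. The test rests on 1 residual degree of freedom, since the only spread measured is that between the 2 nucleus libraries, which was taken to hold for the cell library too. Each gene's spread was moderated by edgeR toward that of all genes, so a small p rests in part on this pooled spread. Among all genes tested, 536 were higher in ciliated cells (6.95%) and 409 lower (5.31%), together 12.3%, and the median log2 fold was -0.27, against which the folds below are to be read. With DESeq2's size factors in place of TMM that median was -0.14, and the share of higher genes among the calls was 71.7% in place of 56.7%. Of the 247 cilia genes, 205 were tested. Their median log2 fold was -0.66, 160 folds were below 0 and 45 above, and 32 genes fell and 6 rose past the test. The call counts depend on the members. With 4 of the 8 genes as the minimum no gene of any kind was called by edgeR, although 1022 were higher and 599 lower at an unadjusted p under 0.05, and DESeq2 on the same sums as the main test called 242 higher and 82 lower.

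**Figure D3:**
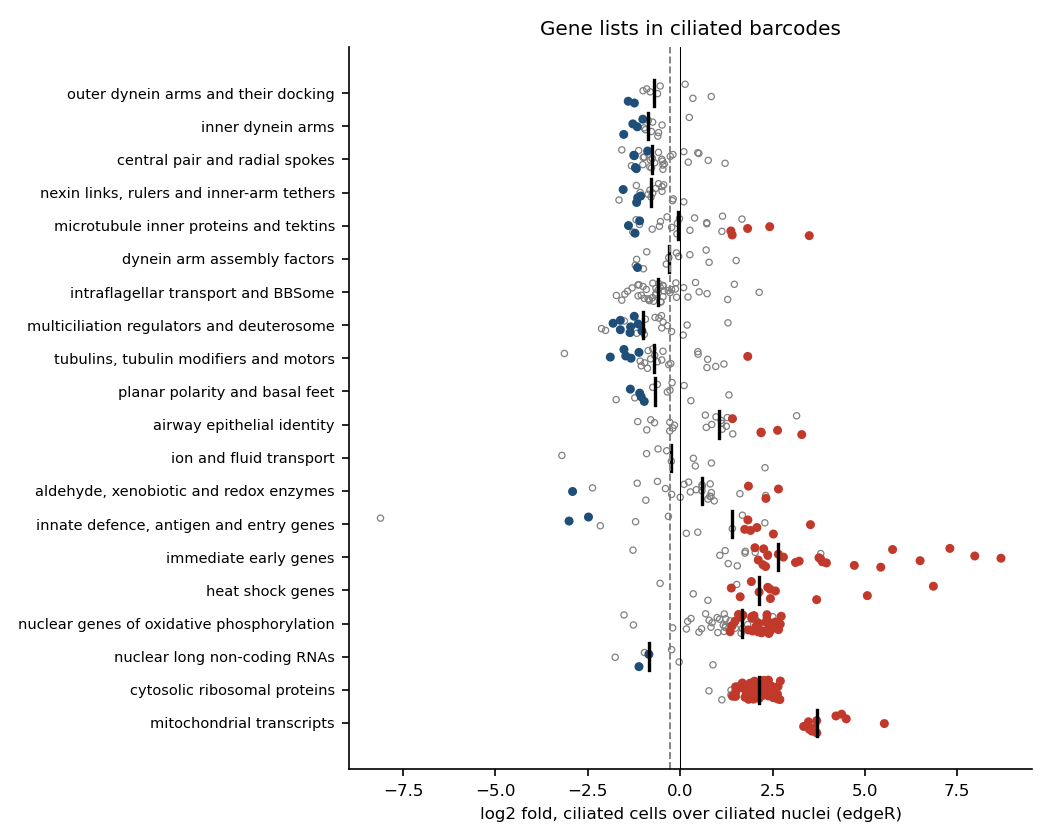
Log2 fold of ciliated cells over ciliated nuclei (x axis, edgeR, TMM) for each tested gene of 20 lists (y axis); filled points passed an adjusted p of 0.05, red where higher and blue where lower in cells, open points did not, short black bars mark the list medians and the dashed line the median of all genes tested, -0.27. The medians of dynein arms, spokes, nexin links and regulators lie left of that line, and those of the immediate early, heat shock, mitochondrial and ribosomal lists right of it.

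The dynein arm genes that passed the test all fell in cells. In the outer arms and their docking, 2 of 10 tested genes fell and none rose, with a median log2 fold of -0.71. Dnah9, the outer arm heavy chain of the distal cilium, had 740 CPM in ciliated cells and 1657 and 1732 CPM in ciliated nuclei, all far above the 4.98, 29.3 and 42.0 CPM of the other barcodes. Its log2 fold was -1.41 ± 0.24 (SE, edgeR adjusted p = 0.00669), and that of Armc4, a docking protein, was -1.24. Dnah5 and Dnah11, also outer arm heavy chains, did not pass, with log2 folds of -0.61 and -0.54. In the inner arms, 4 of 13 fell, with a median of -0.86. These were Dnah3, Dnah6, Dnah7a and Dnah10. Dnah6 had 898 CPM in ciliated cells and 1785 and 1692 CPM in ciliated nuclei (log2 fold -1.16, edgeR adjusted p = 0.0121), and Dnah7a 293 CPM in cells and 603 and 844 CPM in nuclei (log2 fold -1.53, edgeR adjusted p = 0.0177). DESeq2 kept 1 call in each of the 2 lists. Among members with at least 1% of UMIs in cilia genes, 6 outer and 9 inner arm genes fell.

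In the parts that regulate the arms, every gene that passed the test fell as well. Of 31 central pair and radial spoke genes, 5 fell, with a median of -0.76. These were the spoke gene Cfap61, the central pair genes Spag6l, Spef2 and Cfap65, and Lrguk. Spag6l had 340 CPM in ciliated cells and 627 and 755 CPM in ciliated nuclei, and Cfap65 262 CPM in cells and 434 and 637 CPM in nuclei. Of 19 genes of nexin links, rulers and inner arm tethers, 4 fell, with a median of -0.79. Besides Ak9 these were Ak7, the tether gene Cfap44 and Fbxl13. Ak7 had 582 CPM in ciliated cells and 1072 and 1201 CPM in ciliated nuclei (log2 fold -1.18, edgeR adjusted p = 0.0188), and Cfap44 737 CPM in cells and 1161 and 1500 CPM in nuclei (log2 fold -1.07, edgeR adjusted p = 0.0318). DESeq2 called none of these 2 lists, and among members with at least 1% of UMIs in cilia genes 17 and 11 fell. Of 13 factors that assemble dynein arms in the cytoplasm, 1 fell, Lrrc6, at 360 CPM in ciliated cells and 624 and 760 CPM in ciliated nuclei, and the list's median was -0.31. DESeq2 did not call it.

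Genes of proteins inside the doublet microtubules went both ways. Of 26 tested, 5 rose and 3 fell, and the median was -0.05, which was 0.08 with DESeq2's size factors. Tppp3, a tubulin polymerisation protein (GRCm38 chr8:105467493-105471526), had 1255 CPM in ciliated cells and 148 and 243 CPM in ciliated nuclei, against 134, 54.8 and 105 CPM in other barcodes. Its log2 fold was 2.42 ± 0.32 (SE, edgeR adjusted p = 0.00265), and it was higher in cells than in both nucleus libraries in the other barcodes too. 1110017D15Rik (GRCm38 chr4:41505009-41517333) had 377 CPM in ciliated cells and 20.8 and 31.9 CPM in ciliated nuclei, against 9.16 CPM in other cells and 22.5 and 17.1 CPM in other nuclei. Its log2 fold was 3.49 ± 0.38 (SE, edgeR adjusted p = 0.00102). In nuclei this gene therefore did not mark the class, at 0.926 and 1.86 times the level of other nuclei, while in cells it stood 41.1 times above other cells. Spaca9 had 148 CPM in ciliated cells and 38.6 and 34.6 CPM in ciliated nuclei, Fam183b 360 CPM in cells and 110 and 122 CPM in nuclei, and Cfap126 141 CPM in cells and 41.6 and 49.6 CPM in nuclei. DESeq2 did not call these last 3. Among the genes that fell were Nme7 and Rp1, a doublecortin family gene, the second at 1113 CPM in ciliated cells and 1877 and 2234 CPM in ciliated nuclei.

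No gene of intraflagellar transport or the BBSome passed the edgeR test among 44 tested, and the list's median was -0.59. Dync2h1, the motor of the return path, had 521 CPM in ciliated cells and 621 and 622 CPM in ciliated nuclei (log2 fold -0.46 ± 0.27). Ift88 had 320 CPM in cells and 419 and 557 CPM in nuclei, and Bbs9 471 CPM in cells and 707 and 657 CPM in nuclei. Among members with at least 1% of UMIs in cilia genes, 13 of the list fell and 1 rose. Of 26 tested tubulin, tubulin modifier and motor genes, 5 fell and 1 rose, with a median of -0.72. Agbl4, a deglutamylase of tubulin (GRCm38 chr4:110397661-111664324), had 915 CPM in ciliated cells and 2212 and 2184 CPM in ciliated nuclei (log2 fold -1.47 ± 0.22 SE, edgeR adjusted p = 0.0042); its locus overlaps Bend5 on the same strand. Kif27, a kinesin of the central pair pathway (GRCm38 chr13:58287502-58359122), had 148 CPM in cells and 496 and 456 CPM in nuclei (log2 fold -1.89, edgeR adjusted p = 0.0074). Kif6, Kif24 and Ttll5 fell as well. The gene that rose was Tuba1b, a common alpha tubulin, at 286 CPM in ciliated cells and 59.4 and 75.1 CPM in ciliated nuclei, close to the 212, 37.4 and 65.4 CPM of other barcodes.

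The list of multiciliation regulators, deuterosome genes and kinases had a median of -1.002, the lowest of the 9 cilia lists in this fit. Of 24 tested, 8 fell and none rose, and DESeq2 called 4 lower. Of the 8, only Rfx2 is among the regulators named above for the programme. Among members with at least 1% of UMIs in cilia genes, 12 fell and 1 rose. Foxj1, a rule gene, was left out of this list's test. Its level was higher in cells, at 246 CPM in ciliated cells and 137 and 78.1 CPM in ciliated nuclei. Foxj1 helped to choose the members, and the part of that choice in its level was not tested. Rfx2 (GRCm38 chr17:56775897-56831013) had 242 CPM in ciliated cells and 686 and 606 CPM in ciliated nuclei (log2 fold -1.62 ± 0.30 SE, edgeR adjusted p = 0.00983), and a UMI in 44.8% of ciliated cells and 71.8% and 84.3% of ciliated nuclei. Rfx3 had 878 CPM in ciliated cells and 1235 and 1199 CPM in ciliated nuclei and did not pass (log2 fold -0.68 ± 0.24), and it was also present at 184, 245 and 190 CPM in other barcodes. The kinases Stk33, Nek11, Stk36 and Ulk4 fell, as did Fank1, Jazf1 and Zbbx. Stk33 had 679 CPM in ciliated cells and 1740 and 1287 CPM in ciliated nuclei (log2 fold -1.36, edgeR adjusted p = 0.0121). Ulk4 had 669 CPM in cells and 1461 and 2583 CPM in nuclei, and its log2 fold of -1.82 was -1.18 without nucleus replicate 2. Myb and Trp73 did not pass the test. Myb had 178 CPM in ciliated cells and 172 and 187 CPM in ciliated nuclei, and Trp73 148 CPM in cells and 196 and 170 CPM in nuclei, with log2 folds of -0.23 ± 0.34 and -0.50 ± 0.35.

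Early regulators were near the limit of detection in both preparations. Gmnc had a UMI in 0% of ciliated cells and in 2.35% and 1.01% of ciliated nuclei, Mcidas in 0% of cells and 1.18% and 0.289% of nuclei, and Ccno in 3.13% of cells and 0% and 0.289% of nuclei. Deup1, a scaffold of the deuterosome, had a UMI in 10.4% of ciliated cells and 15.3% and 20.1% of ciliated nuclei, against 0.522%, 0.952% and 1.55% of other barcodes. Of the 5 genes Deup1, Ccno, Cdc20b, Mcidas and Foxn4, at least 1 had a UMI in 15 of 96 ciliated cells (15.6%), 16 of 85 nuclei of replicate 1 (18.8%) and 166 of 693 nuclei of replicate 2 (24.0%). At least 2 of them were seen together in 0, 2 and 9 barcodes. Of the 20 genes of planar polarity and basal feet, 14 were tested and 4 fell (Celsr1, Prickle2, Cep128 and Ankfn1), with a median of -0.68. DESeq2 called none of them.

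The direction of the cilia genes varied with the length of the gene. Spans from start to end were taken from the GENCODE M21 annotation (GRCm38) for 203 of the 205 tested cilia genes. In 4 groups of equal size and rising span the median log2 fold was 0.48 (spans of 1.945 to 24.0 kb), -0.67 (24.5 to 46.0 kb), -0.76 (46.2 to 86.5 kb) and -1.01 (87.3 to 1267 kb). All 6 genes that rose lay in the group of shortest span, and of the 32 that fell 25 lay in that of longest span. The longest gene that rose spanned 13.05 kb and the shortest that fell 33.5 kb. Over all 7659 tested genes with a span the medians of such groups were 1.19, -0.19, -0.51 and -0.74, and over the 7456 in no cilia list they were 1.21, -0.19, -0.50 and -0.73, in the same order. The calls over all 7659 genes were split likewise. The group of shortest span held 428 genes that rose and 27 that fell, and that of longest span 22 that rose and 255 that fell. Spearman's rank correlation between span and log2 fold was -0.55 over the cilia genes and -0.51 over all genes. These are descriptions across genes of the same 3 libraries, and genes are not independent replicates. Whether unspliced reads were counted is not given in the sources used here, and the part of span in the fold of any gene was not tested.

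**Figure D4:**
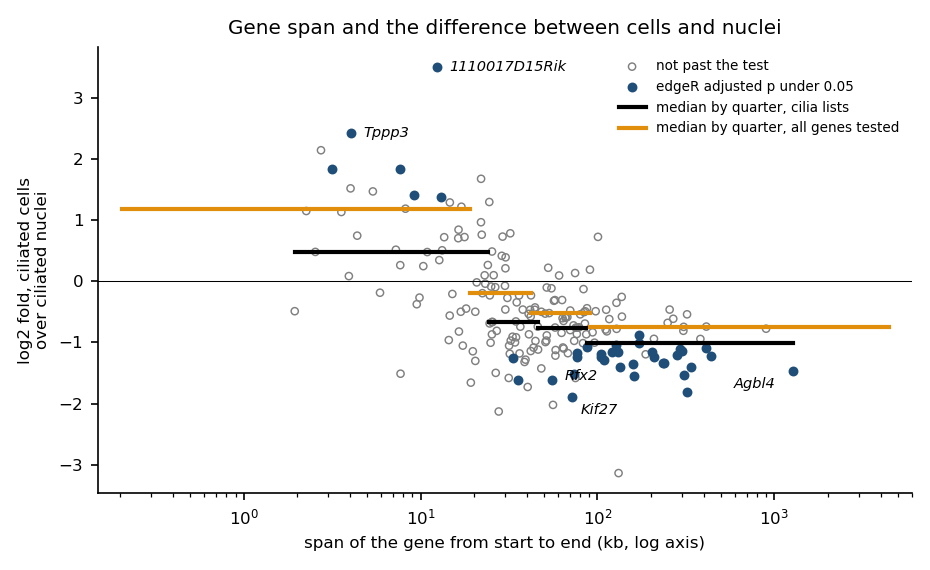
Log2 fold of ciliated cells over ciliated nuclei (y axis) against the span of the gene from start to end (x axis, kb, log scale) for 203 genes of the cilia lists; filled points passed an edgeR adjusted p of 0.05, and horizontal lines give the median in each of 4 span groups of equal size for the cilia genes (black) and for all genes tested (orange). The 6 cilia genes that rose span at most 13.05 kb and the 32 that fell at least 33.5 kb.

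Of 24 tested genes of airway epithelial identity, 5 (Cd24a, Krt8, Cldn3, Sox2 and Ezr) rose in ciliated cells and none fell, with a median of 1.04, and DESeq2 called 4. Among members with few markers of other cell types, 9 cells and 5 and 32 nuclei, only 7 of these genes were tested. Their median was -0.28, and 1 rose. Among members with at least 1% of UMIs in cilia genes, 11 of 23 tested genes rose and 3 fell. Cd24a, a surface protein of ciliated cells (GRCm38 chr10:43578284-43584265), had 1184 CPM in ciliated cells and 92.1 and 112 CPM in ciliated nuclei, against 123 CPM in other cells and 48.9 and 73.9 CPM in other nuclei. Its log2 fold was 3.29 ± 0.29 (SE, edgeR adjusted p = 0.000253). The keratin Krt8 had 293 CPM in ciliated cells and 32.7 and 67.6 CPM in ciliated nuclei, with a log2 fold of 2.19 that was 2.88 without nucleus replicate 2. The tight junction gene Cldn3 had 232 CPM in ciliated cells and 29.7 and 50.7 CPM in ciliated nuclei (log2 fold 2.19, edgeR adjusted p = 0.0103). Sox2, a transcription factor of the conducting airway whose locus lies within Sox2ot on the same strand, had 84.1 CPM in cells and 8.91 and 12.4 CPM in nuclei (log2 fold 2.64, edgeR adjusted p = 0.0224). Ezr, which anchors actin at the apical membrane, rose too, at 760 CPM in ciliated cells and 211 and 274 CPM in ciliated nuclei. In nuclei these 5 genes set the class apart little: Sox2 was 1.77 and 1.65 times and Cd24a 1.88 and 1.52 times as high in ciliated as in other nuclei, against 377 and 9.64 times in cells.

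Cdhr3 and the enzymes of the airway gave a mixed pattern. Cdhr3, a cadherin that in humans is the receptor of rhinovirus C, had a UMI in 89.6% of ciliated cells and 87.1% and 96.2% of ciliated nuclei, against 0.532% of other cells and 12.2% and 13.2% of other nuclei. It had 834 CPM in ciliated cells and 1122 and 1561 CPM in ciliated nuclei, and its log2 fold of -0.90 ± 0.28 did not pass. Among 26 tested genes of aldehyde, xenobiotic and redox metabolism, 3 rose and 1 fell (Aox3), with a median of 0.59. Gstm1, a glutathione transferase, had 794 CPM in ciliated cells and 119 and 149.9 CPM in ciliated nuclei, and Prdx5, a peroxiredoxin, 289 CPM in cells and 29.7 and 44.0 CPM in nuclei, with log2 folds of 2.32 and 2.66. Gstm2, a close relative of Gstm1, rose too, and reads shared between such paralogs could not be told apart here. Cyp2s1, a cytochrome of the airway, was a level marker in both preparations, with 757 CPM in ciliated cells and 549 and 748 CPM in ciliated nuclei, against 5.20 CPM in other cells and 27.5 and 56.0 CPM in other nuclei. Of 9 tested genes of ion and fluid transport none passed, and Cftr, the chloride channel, had a UMI in 7.29% of ciliated cells and 11.8% and 2.45% of ciliated nuclei, against 4.97%, 17.1% and 8.98% of other barcodes. Tmprss2, a protease that primes viral spike proteins, had a UMI in 30.2% of ciliated cells and 36.5% and 37.2% of ciliated nuclei, against 1.48%, 6.48% and 13.0% of other barcodes.

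Among 17 tested genes of innate defence, antigen presentation and entry, 6 rose and 2 fell, with a median of 1.41. DESeq2, which gave 12 of the listed genes an adjusted p, called 5 higher and none lower. Its median of 0.095 covers every listed gene with a DESeq2 fold, those too low for the edgeR filter included. It is thus a median over other genes than the 1.41. Among members with at least 1% of UMIs in cilia genes, 8 of 16 tested genes rose and 4 fell. Cxcl17, a mucosal chemokine, had 128 CPM in ciliated cells and 14.8 and 7.89 CPM in ciliated nuclei, against 1.02, 7.33 and 8.30 CPM in other barcodes. Its log2 fold was 3.53. Without nucleus replicate 2 the difference of log2 CPM, with a small count added, was 2.61. B2m, H2-K1, H2-D1, Cd74 and Ifitm3 rose as well. Cd74, the invariant chain of class II presentation, had 404 CPM in ciliated cells and 95.02 and 109 CPM in ciliated nuclei, but 1972 CPM in other cells and 147 and 207 CPM in other nuclei. Both genes that fell in the main test, Sftpd and Cxcl15, are products of alveolar or secretory cells.

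Immediate early and heat shock genes rose in ciliated cells as broad groups. Of 42 immediate early genes in the tables, 31 were tested, 21 rose and none fell, with a median log2 fold of 2.66. DESeq2 gave 19 of them an adjusted p and called 10 higher. Fos had 632 CPM in ciliated cells and 2.97 and 3.38 CPM in ciliated nuclei, and 726 CPM in other cells and 3.59 and 4.06 CPM in other nuclei. Egr1 had 653 CPM in ciliated cells and 11.9 and 4.88 CPM in ciliated nuclei, and Junb 794 CPM in cells and 8.91 and 13.5 CPM in nuclei. These genes had low counts in nuclei. Their log2 folds were 7.30 for Fos and 6.49 for Egr1, and the values without nucleus replicate 2 were 6.06 and 5.13. Values with a replicate left out are differences of log2 CPM with a small count added, not edgeR folds. The added count pulls them toward 0 where counts are low, and its part in these drops was not tested. Junb had a log2 fold of 5.75 and of 5.51 and 5.67 without either replicate. Fosb had 96 counts in ciliated cells and 3 in all ciliated nuclei, a ratio of 323 with a counting interval of 107 to 1593, and Nr4a3 had 16 counts in cells and 0 in nuclei, at least 53.8-fold higher with a floor of 3 counts over both nucleus libraries. This bound lies above the median of the list, which therefore does not depend on it. Other barcodes also had higher levels in cells for Fos, Egr1, Junb and Fosb. The test of whether the difference was another in ciliated barcodes found 0 higher and 2 lower of 42 genes, and the median interaction of the list was -1.06, against -0.56 over all genes.

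Of 15 tested heat shock genes, 11 rose and none fell, with a median of 2.14, and DESeq2 called 7. Hsp90aa1, the inducible Hsp90, had 1880 CPM in ciliated cells and 291 and 256 CPM in ciliated nuclei (log2 fold 2.58 ± 0.24 SE, edgeR adjusted p = 0.000446), against 379 CPM in other cells and 154 CPM in other nuclei of either replicate. Hsph1, of the Hsp110 class, had 427 CPM in ciliated cells and 116 and 44.7 CPM in ciliated nuclei, against 83.8 CPM in other cells and 31.8 and 15.2 CPM in other nuclei. Its log2 fold of 2.37 was 2.99 without nucleus replicate 1 and 1.77 without replicate 2. Both genes were thus higher in ciliated than in other barcodes of every library, nuclei included. Dnajb1, an Hsp40, had 192 CPM in cells and 11.9 and 3.38 CPM in nuclei, with a log2 fold of 5.07. Without nucleus replicate 2 the value was 3.39, again a difference of log2 CPM with a small count added.

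**Figure D5:**
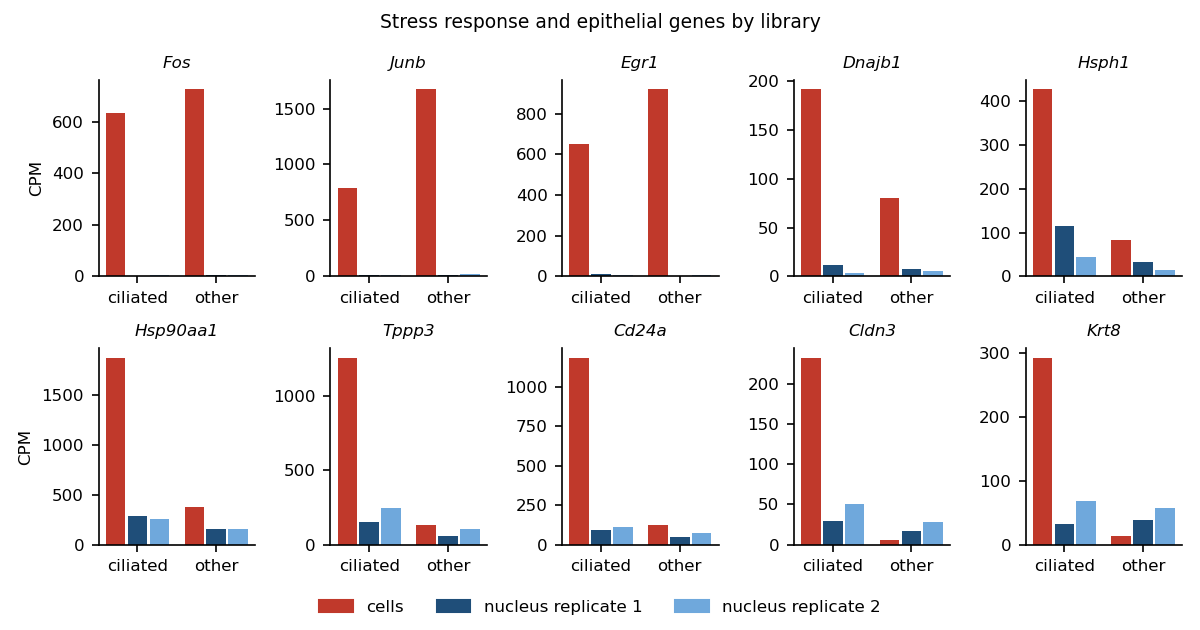
CPM of the summed counts (y axis, each panel with its own scale from 0) of 10 genes in ciliated (left bars) and other barcodes (right bars) of cells, nucleus replicate 1 and nucleus replicate 2. Fos, Junb and Egr1 are high in ciliated and other cells alike, while Hsp90aa1 at 1880 CPM, Tppp3 at 1255 CPM and Cd24a at 1184 CPM in ciliated cells stand above the other cells.

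Transcripts of energy and translation machinery were also higher in cells. All 11 mitochondrial transcripts tested rose, with a median log2 fold of 3.70, and DESeq2 called all 11. mt-Cytb had 8412 CPM in ciliated cells and 181 and 140.3 CPM in ciliated nuclei, against 3337 CPM in other cells and 229 and 201 CPM in other nuclei. Of 66 nuclear genes of oxidative phosphorylation, 32 rose and none fell (median 1.67), and DESeq2 called 11. Of 74 cytosolic ribosomal protein genes, 69 rose and none fell (median 2.15), and DESeq2 called 58. Their summed level was 35146 CPM in ciliated cells and 8056 and 5960 CPM in ciliated nuclei, against 74740 CPM in other cells and 8199 and 7991 CPM in other nuclei, so the level was lower in ciliated than in other cells and in ciliated than in other nuclei of replicate 2, and nearly equal in replicate 1. Malat1, a nuclear lncRNA, fell in ciliated cells, at 10276 CPM in cells and 16543 and 15456 CPM in nuclei (log2 fold -0.85, edgeR adjusted p = 0.00539). Malat1 was lower in ciliated than in other barcodes of nuclei, where it stood at 30585 and 37941 CPM.

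Outside the lists, the genes with the highest folds included Dgkg, Col19a1, Il1b, Hba-a2 and Iqcn. Dgkg, a diacylglycerol kinase, had 642 CPM in ciliated cells and 14.8 and 7.14 CPM in ciliated nuclei, and 717 CPM in other cells and 35.7 and 56.3 CPM in other nuclei. Its locus overlaps transcripts on the other strand, as do those of Cfap61, Fank1, Ccdc162, Stk33 and Junb, and the sources used here do not say whether counting used strand. Col19a1, a collagen, had 313 CPM in ciliated cells and 2.97 and 5.26 CPM in ciliated nuclei, and 198, 3.48 and 4.18 CPM in other barcodes. Both genes thus had higher levels in cells than in nuclei within the class and outside it. Hba-a2, a haemoglobin chain whose near-identical copy makes its count uncertain, had 602 CPM in ciliated cells and 23.8 and 18.4 CPM in ciliated nuclei.

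Of the leading genes lower in ciliated cells, Efcab5 was a gene of the class in nuclei. It had 2 counts in ciliated cells and 323 in ciliated nuclei, 16.01-fold lower with a counting interval of 4.40 to 133, and stood at 6.73 CPM in ciliated cells and 113 and 107 CPM in ciliated nuclei, against 6.60, 8.37 and 8.65 CPM in other barcodes. Fgf14, which modulates sodium channels, had 13.5 CPM in ciliated cells and 131 and 87.9 CPM in ciliated nuclei, against 3.25, 8.68 and 12.1 CPM in other barcodes. Most of the others had higher levels in other than in ciliated nuclei. Col4a4 had 0 counts in ciliated cells and 68.3 and 71.4 CPM in ciliated nuclei (at least 7.04-fold lower with a floor of 3 counts in cells), against 39.6 CPM in other cells and 241 and 526 CPM in other nuclei. Rtkn2, a gene of type 1 pneumocytes, had 16.8 CPM in ciliated cells and 98.0 and 160.0 CPM in ciliated nuclei, against 80.1 CPM in other cells and 851 and 1381 CPM in other nuclei. Ror1, Bmp1, Lamp3, Slc34a2, Acoxl, Akap10, Adamtsl1, Hc, Ascc2 and Dram1 were likewise higher in other than in ciliated nuclei of both replicates.

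Transcripts of neighbouring cell types were present in the ciliated barcodes. Scgb1a1, the secretoglobin of club cells, had 6445 CPM in ciliated cells and 14794 and 11344 CPM in ciliated nuclei, against 1407 CPM in other cells and 15268 and 16470 CPM in other nuclei. It had a UMI in 95.8% of ciliated cells and in all ciliated nuclei, and in 87.8%, 99.8% and 100% of other barcodes, so it was detected in nearly all nuclei, while its level was lower in ciliated than in other nuclei of both replicates. Among cells, 1 ciliated barcode held 28.1% of its UMIs in Scgb1a1 and the top 4 held 59.7% of the class's counts, while the median ciliated cell held 0.205% and the median other cell 0.0740%. Scgb1a1 fell in ciliated cells (log2 fold -1.23), and the log2 fold was -2.37 among members with at least 1% of UMIs in cilia genes. Summed over 12 markers, club genes stood at 9405 CPM in ciliated cells (5741 CPM with at least 1% of UMIs in cilia genes) and 17451 and 13273 CPM in ciliated nuclei, against 1686, 17315 and 19202 CPM in other barcodes, with Reg3g at 0 in ciliated cells, and 3 of 9 tested fell.

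Markers of type 2 pneumocytes summed to 908 CPM in ciliated cells and 4160 and 3263 CPM in ciliated nuclei, and 8 of 12 fell, with Il33 at 0 in cells. Type 1 markers summed to 1093 CPM in ciliated cells and 1589 and 1347 CPM in ciliated nuclei, and 2 of 11 tested fell. Immune markers summed to 1487 CPM in ciliated cells and 294 and 295 CPM in ciliated nuclei, and 7 of 9 tested rose, with Tyrobp, Marco and Nkg7 at 0 in nuclei of replicate 1. Endothelial markers summed to 2112 CPM in ciliated cells and 1173 and 731 CPM in ciliated nuclei, of which Cldn5 rose among 10 tested, and mesenchymal ones to 343 CPM in ciliated cells and 383 and 252 CPM in ciliated nuclei. Among members with at least 1% of UMIs in cilia genes, 8 of 10 tested endothelial markers and 9 of 9 tested immune markers rose, and none of either list fell. Other cells held 7125 CPM of immune markers, 4952 of endothelial and 1333 of mesenchymal, each above the ciliated cells of that library. The part of these transcripts in the results above, the immune, surfactant and Cd74 results included, was not tested. Members were also limited to those with fewer than 3 of the 12 markers of each of the type 2, type 1, endothelial, mesenchymal and immune lists. Club markers were not limited. This left 9 cells and 5 and 32 nuclei, and edgeR called 32 genes higher and 5 lower of 879 tested.

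A further test asked whether the difference between cells and nuclei was another in ciliated than in other barcodes of the same libraries. Counts summed over ciliated and over other barcodes gave 6 sums, with the library as a block. The interaction was tested with edgeR over 18572 genes with 1 residual degree of freedom. Each gene's spread was moderated toward that of all genes, so a very small p rests on this pooled spread and not on many libraries. The interaction was positive for 390 genes (2.1%) and negative for 439 (2.36%), together 4.46%. With DESeq2's size factors 550 were positive and 301 negative, so positive genes were 64.6% of the calls in place of 47.0%. The ciliated barcodes were chosen by cilia genes, so the interaction of cilia genes is not independent of that choice.

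Airway epithelial genes had positive interactions, 15 of 30 and none negative, and central pair and spoke genes 18 of 32 with 2 negative. For Sox2 the interaction was 7.10 ± 0.93 (log2, SE, edgeR adjusted p = 1.29e-11). Its level in other cells was 0.223 CPM and in other nuclei 5.04 and 7.54 CPM, so it was lower in cells outside the class and higher within it. Cyp2f2, a cytochrome of club cells, had 1016 CPM in ciliated cells and 763 and 546 CPM in ciliated nuclei, which did not differ past the test, against 12.03 CPM in other cells and 404 and 933 CPM in other nuclei, and its interaction was 5.78 ± 0.44 (log2, SE, edgeR adjusted p = 6.35e-35). With type 2 pneumocyte barcodes alone as the comparison, 3 of the central pair and spoke genes were called positive and 1 negative, and 4 of the airway epithelial genes positive and 1 negative. With type 1 barcodes 3 and 6 genes were positive, and 1 and 0 negative. The median interaction of the central pair and spoke list was 1.93 in the main test, 1.39 against type 2 barcodes and 1.87 against type 1 barcodes, and that of the airway epithelial list 1.96, 0.68 and 1.02. Other nuclei held more cilia and club transcripts than other cells, as given above, and the part of this in the interaction was not tested.

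Ribosomal protein genes had negative interactions, 56 of 80 and none positive, and immune markers 6 of 12. With DESeq2's size factors 32 ribosomal genes were negative, by DESeq2 itself 5, and against type 2 or type 1 barcodes alone 1 and 0. The median interaction of the ribosomal list was -1.49 in the main test and -1.19, -1.20, -0.95 and -0.77 under these alternatives in turn. Of the immune markers, DESeq2 called 2 negative, and 1 and 0 were negative against type 2 and type 1 barcodes. Their median interaction was -1.79 in the main test, -1.44 by DESeq2 and -0.14 and -0.34 against these barcodes. Immediate early, heat shock and mitochondrial lists had few calls, with 2 of 42, 0 of 16 and 1 of 11 genes past the test, the last being mt-Nd2. Morn1, a gene with MORN repeats, had 118 CPM in ciliated cells and 463 and 414 CPM in ciliated nuclei, against 104 CPM in other cells and 27.8 and 29.0 CPM in other nuclei, with an interaction of -4.33 ± 0.46 (log2, SE, edgeR adjusted p = 5.1e-18). In nuclei it marked the class, at 16.7 and 14.3 times the level of other nuclei, and in cells at 1.14 times.

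The 2 nucleus libraries ranked the cilia genes below in much the same order (Spearman's rank correlation 0.967 over all members), while most levels were lower in replicate 1. Over 160 cilia genes with at least 50 CPM in both, the median log2 ratio of nucleus replicate 1 to replicate 2 was -0.21 (SD 0.33, range -1.77 to 0.58), and 128 of the 160 were lower in replicate 1. Among members with at least 1% of UMIs in cilia genes the median was -0.03 and 85 of 162 were lower in replicate 1.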

How the data were processed

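Counts of UMIs per gene and barcode were used as deposited, 1 table for the cell library and 1 for both nucleus libraries, made by the authors with alignment to mm10 and STAR 2.5.3a per the submitters' processing notes. The counting tool, the annotation and the treatment of intronic reads and strand are not given by the sources read for this work. The tables share 21507 genes, which were used; genes of only 1 table held 0.0392% of the counts of cells and 0.0228% of those of nuclei. The deposited barcodes were used as they are, and no doublet caller was run; both tables stop at a fixed number of genes per barcode. The members and the gene lists were chosen with earlier results of these data known.

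Counts were summed per library over ciliated and over other barcodes and fitted with edgeR 4.0.16 in R 4.3.3 (TMM, filterByExpr, quasi-likelihood F test, Benjamini-Hochberg adjustment over all genes tested); SE is the size of the log2 fold over the square root of F. Both fits were checked on simulated counts with known changes. DESeq2 1.42.0, its size factors, no filter on low counts, other member rules, other comparison barcodes, each nucleus library left out in turn and other thinning depths were tried as alternatives. With a nucleus library left out, the values are differences of log2 CPM after TMM with a small count added. They are therefore nearer to 0 than edgeR folds where counts are low. For the genes named, the rule asked for 50 CPM or more in 1 group, a log2 fold of 1 or more in size and an adjusted p under 0.05, and took the leading 15 a direction (8 for the interaction). The leading genes against other barcodes had at least 50 CPM in every library and were ranked by the smallest log2 ratio with 5 CPM added, and further genes come from the lists. Summed counts per library and class, 297301 to 2662080 in ciliated barcodes, set the precision of each level. Levels in the text are CPM of the sums without TMM, and folds include it.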

Additional observations from a re-analysis of the deposited data

Results flagged for a closer look

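A test of the interaction between preparation and class picked out 16 genes, 8 in each direction, whose difference between cells and nuclei was another in ciliated than in other barcodes (edgeR, adjusted over all genes tested). Values are log2 interactions, followed by CPM. The ciliated barcodes were chosen by cilia genes, other nuclei held more cilia and club transcripts than other cells, and the part of either in these values was not tested.

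Positive interactions were led by Sox2 at 7.10, Tekt4, a tektin of the doublet microtubules, at 6.25 and Cxcl17 at 6.07. Tekt4 had 84.1 CPM in ciliated cells and 2.97 and 30.8 CPM in ciliated nuclei, against 0.191, 4.31 and 6.59 CPM in other barcodes. Cdhr4, a cadherin, had 5.78, with 232 CPM in ciliated cells and 44.5 and 107 CPM in ciliated nuclei, against 0.287, 5.56 and 10.7 CPM in other barcodes, and its locus overlaps Gm20661 and Gm20662. The cytochromes Cyp2f2 and Cyp2a5 had 5.78 and 5.75; Cyp2a5 had 47.1 CPM in ciliated cells and 59.4 and 41.3 CPM in ciliated nuclei, against 0.160, 23.8 and 9.65 CPM in other barcodes. Fam216b had 5.70, with 67.3 CPM in ciliated cells and 38.6 and 57.5 CPM in ciliated nuclei, against 0.0638 CPM in other cells and 4.11 and 4.47 CPM in other nuclei. Lrrc10b had 5.69, with 118 CPM in ciliated cells and 11.9 and 24.4 CPM in ciliated nuclei, against 0.606, 5.09 and 10.4 CPM in other barcodes. All 8 were thus lower in other cells than in other nuclei of both replicates.

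Of the 8 genes with negative interactions, all but Efcab5 had higher levels in other cells than in other nuclei of both replicates. Dlec1 had -6.10, with 26.9 CPM in ciliated cells and 95.02 and 56.3 CPM in ciliated nuclei, against 31.6 CPM in other cells and 1.46 and 2.12 CPM in other nuclei; its locus overlaps Acaa1b on the other strand. Gpr35, a G protein-coupled receptor, had -4.51, and Lpl, lipoprotein lipase, -4.44. Lpl had 141 CPM in ciliated cells and 288 and 411 CPM in ciliated nuclei, against 442 CPM in other cells and 76.7 and 73.6 CPM in other nuclei. Arhgdib had -4.35, with 47.1 CPM in ciliated cells and 41.6 and 174 CPM in ciliated nuclei, so its nucleus libraries differed, and it overlaps Pde6h on the other strand. Morn1 had -4.33 and Efcab5 -4.24. Cerkl had -4.22, with 26.9 CPM in ciliated cells and 50.5 and 65.4 CPM in ciliated nuclei, against 44.4 CPM in other cells and 5.25 and 10.2 CPM in other nuclei. Abhd12b had -4.05, with 16.8 CPM in ciliated cells and 50.5 and 87.9 CPM in ciliated nuclei, against 3.29, 0.780 and 1.71 CPM in other barcodes.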

How the results depend on the processing

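Among the named genes' folds and the 16 named interactions, none that passed the test in the main fit changed direction under the alternatives run. Folds that did not pass could change sign. That of Arhgdib was -1.54 in the main fit and 0.10 without nucleus replicate 2. The other calls were not followed one by one. The balance of calls did turn: more genes were higher than lower in the main fit, and fewer with 6 of the 8 genes or at least 1% of UMIs in cilia genes, and the interaction had fewer positive than negative genes in the main fit but 550 and 301 with size factors. With members of few other markers the median log2 fold of airway epithelial genes was -0.28 in place of 1.04, and that of club markers 0.34 in place of -0.57. These medians cover 7 airway genes in place of 24 and 5 club markers in place of 9. The setting held only 9 cells and 5 and 32 nuclei. The medians thus compare different genes, and the part of the members in the change was not tested. Between ciliated cells and ciliated nuclei, 536 genes were higher and 409 lower in the main fit. The counts were 514 and 203 with DESeq2's size factors, 844 and 764 with no filter on low counts, 242 and 82 by DESeq2, 0 and 0 with 4 of the 8 genes as the minimum (1022 and 599 at an unadjusted p under 0.05), 769 and 968 with 6, 32 and 5 with members of few other markers, where 879 genes were tested, and 934 and 1182 with members of at least 1% of UMIs in cilia genes, which was added after seeing the data. Limits of 400 genes and 20% mitochondrial UMIs left 536 and 409. The interaction gave 390 positive and 439 negative genes in the main fit, 323 and 79 by DESeq2, 100 and 89 against type 2 barcodes and 133 and 104 against type 1 barcodes, with 14938 and 14577 genes tested. Apart from the fewer genes or members that these settings hold by construction, the cause was not tested. No paired analysis was possible because the cells have 1 library, and leaving out a nucleus library left no residual degrees of freedom, so those settings gave values without a test. These values also came from another estimator, a difference of log2 CPM with a small count added. Over the named genes' folds, 491 values under alternatives stayed on their side of the threshold or, without an adjusted p, within the SE of the main fold. Another 119 kept the direction only, and 49 without a test moved by more than that SE. For the named interactions the numbers were 105 and 7, the 7 being Abhd12b, Efcab5 and Fam216b against type 2 barcodes and Abhd12b, Dlec1, Fam216b and Gpr35 against type 1 barcodes. Of the shares of ciliated barcodes, that of cells moved to 0.612% with 6 genes and 0.285% after thinning to 1000 UMIs, that of nucleus replicate 1 to 3.04% with 4 genes, 0.847% with 6 and 0.629% thinned, and that of nucleus replicate 2 to 8.27%, 5.37% and 4.41%. Genes detected in ciliated cells over the mean of ciliated nuclei were 1.06 at 1000 UMIs, 1.09 at 2000 UMIs and 0.927 without thinning. Depth limits the cell sum, where 1 count is worth more than in nuclei of replicate 2, and a gene at 0 counts in ciliated cells could lie at up to 10.1 CPM.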
